A study of Mus musculus with 15 samples.

Results

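The 10 genes described here encode antioxidant enzymes and their suppliers: Nqo1 and Hmox1, the glutathione-synthesis genes Gclc, Gclm and Slc7a11, the reductases Gsr and Txnrd1, sulfiredoxin (Srxn1), and the glutathione peroxidases Gpx1 and Gpx3. They were taken by symbol, as 10 of the 19602 genes in the table, and 9 of them had enough reads to be tested. RNA was read from mouse kidneys perfused with cold saline and taken at day 14 after 1 injection into the abdomen, given at 6 to 8 weeks of age. They received folic acid (125 mg/kg), an agent that damages the tubules, or its vehicle, 0.3 M NaHCO3. The mice were Tert+/+ (WT), or generation 3 (G3) Tert-/- mice, which lack the reverse transcriptase of telomerase throughout the body and whose telomeres have shortened over generations of breeding. The groups were WT vehicle (n = 4), WT folic acid (n = 3), G3 vehicle (n = 4) and G3 folic acid (n = 4). No group was a kidney without an injection, and both sexes were used.

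NRF2, encoded by Nfe2l2, is the transcription factor that raises most of these genes when a cell meets oxidants or electrophiles. In unstressed cells KEAP1 hands NRF2 to a ubiquitin ligase for degradation. Oxidants block KEAP1, and NRF2 then binds antioxidant response elements together with small MAF proteins, while BACH1 occupies the same elements as a repressor, above all at Hmox1. The targets make glutathione, recycle it and thioredoxin with NADPH, and clear quinones and haem. Gpx1 and Gpx3 are selenium enzymes that spend glutathione on peroxides. Gpx1 works inside cells, and Gpx3 is secreted into plasma, mainly by the proximal tubule of the kidney.

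Promoters are shown for the only tested gene that passed in any comparison, Nqo1, and for the 3 genes whose window held a match to the core of the antioxidant response element. The windows come from RefSeq on GRCm38.p6, which had an entry for 7 of the 10 genes (9 start sites), and not for Hmox1, Gclc and Gsr. Each window ran from 250 bases before the start site to 50 after it, and the 250 bases before it are printed, 5′ to 3′ on the strand of the gene. Capitals mark matches to TGACNNNGC, the core of the antioxidant response element, or to TGAGTCA, the AP-1 site that NRF2 and BACH1 dimers also bind, each searched on both strands. A TGACNNNGC match lay in 3 of the 9 windows, against 12.4% of 32851 mouse windows of the same length. A TGAGTCA match lay in 1 of the 9, against 5.2% of all. A match is a description of letters, and known distal elements of these genes lie outside windows of this size. The 2 motifs are related, so that a stretch of DNA can hold both, but no match of one overlapped a match of the other in these windows.
Nqo1, chr8:107403206-107403455, minus strand, no match: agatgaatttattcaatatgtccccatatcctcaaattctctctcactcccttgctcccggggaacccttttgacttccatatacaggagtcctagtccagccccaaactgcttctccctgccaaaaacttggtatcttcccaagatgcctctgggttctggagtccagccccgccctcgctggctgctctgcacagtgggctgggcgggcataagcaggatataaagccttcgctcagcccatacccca
Gclm, chr3:122245307-122245556, plus strand, 1 TGACNNNGC match on the opposite strand, 134 bases before the start: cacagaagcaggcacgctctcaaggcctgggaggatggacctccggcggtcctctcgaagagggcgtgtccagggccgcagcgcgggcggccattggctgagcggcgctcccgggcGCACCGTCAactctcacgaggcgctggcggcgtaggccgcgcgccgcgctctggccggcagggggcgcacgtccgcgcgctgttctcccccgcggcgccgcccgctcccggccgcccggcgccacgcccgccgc
Txnrd1, chr10:82858956-82859205, plus strand, before an internal start site, 1 TGACNNNGC match on the opposite strand, 92 bases before the start: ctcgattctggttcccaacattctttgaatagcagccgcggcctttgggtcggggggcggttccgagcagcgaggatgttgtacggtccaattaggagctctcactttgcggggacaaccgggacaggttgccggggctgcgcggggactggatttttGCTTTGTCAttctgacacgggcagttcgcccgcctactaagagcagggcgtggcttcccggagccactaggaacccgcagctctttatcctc
Srxn1, chr2:152105274-152105523, plus strand, 2 TGAGTCA matches, 102 and 45 bases before the start (its TGACNNNGC match lay 28 bases after the start and is not printed): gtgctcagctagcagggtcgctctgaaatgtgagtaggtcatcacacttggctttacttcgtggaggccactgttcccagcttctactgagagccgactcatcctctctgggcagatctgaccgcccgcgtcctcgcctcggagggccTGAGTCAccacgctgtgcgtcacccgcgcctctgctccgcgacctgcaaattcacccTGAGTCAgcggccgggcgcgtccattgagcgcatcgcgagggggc

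The values are gene counts divided by a size factor per library, here called normalised counts, with 1 read worth 0.895 to 1.13. They count 3′ ends of polyadenylated RNA, and levels of different genes were not ranked against each other. Libraries held 5014684 to 6609307 reads. All 12 proximal tubule markers and all 10 markers of other nephron segments, glomerulus and vessels had reads in every library. The labels did not describe any libraries as repeats of 1 kidney. The p-values therefore measure the spread between libraries, which may in part be technical. Several features of the libraries moved with the groups. The summed Y-linked RNA, as a share of the highest library, was 0.327 to 1 in WT vehicle, 0.011 to 0.034 with folic acid in that genotype, 0.001 to 0.009 for G3 vehicle and 0.017 to 0.800 for G3 folic acid. Xist and Y-linked RNA went against the labelled sex in 10 libraries and matched it in 3. The other 2, WT vehicle 2 and G3 folic acid 4, held both. For the folic acid comparison in WT, and for the genotype comparison after vehicle, the groups did not overlap in Y-linked RNA, so that sex and the labelled group cannot be told apart there. In G3 the vehicle and folic acid groups did not overlap in Y-linked RNA either. There G3 folic acid 2, at 0.017, held almost none, and the other folic acid libraries held 0.315 to 0.800. The sample names fall into 3 number series that the labels do not explain, and WT folic acid (all in one series) and G3 folic acid (all in another) share none. WT vehicle and G3 vehicle shared a series only through WT vehicle 4 and G3 vehicle 4. G3 vehicle and G3 folic acid shared one only through G3 vehicle 4. In those comparisons a fit with the series as a term therefore rests on these single libraries. WT folic acid 1 stood apart: Gm42418, a gene model overlapping ribosomal RNA, took 23.0% of its reads against 4.85 to 8.15% in the other libraries, and its summed proximal tubule markers were 38347 against 76591 and 79180 in WT folic acid 2 and 3. In bulk kidney, fewer cells of a type and less RNA per cell cannot be told apart.

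Folic acid in WT kidneys went with less RNA of 1 of the 9 tested genes, Nqo1, and more of none (limma, adjusted p under 0.05 over 14651 genes). Across all genes 5.06% passed in that comparison, so 1 gene of 9 is close to the background. In G3 kidneys none of the 9 passed with folic acid, none had an unadjusted p under 0.05, and edgeR and DESeq2 called 0 as well, against 0.273% of all genes. After vehicle, none of the 9 passed between G3 and WT, against 2.9% of all genes. There 2 had an unadjusted p under 0.05 (Gclm and Txnrd1), edgeR called 0, and DESeq2 called both. After folic acid 1 of the 9, Nqo1, was higher in G3, against 2.3% of all genes. For the difference between the folic acid effects of the 2 genotypes 0 of the 9 passed, against 3.82% of all genes. There 2 had an unadjusted p under 0.05 (Nqo1 and Gpx1), and edgeR and DESeq2 each called Nqo1. The median log2 difference of the 9 genes was -0.31 for folic acid in WT, 0.05 for folic acid in G3, -0.06 between genotypes after vehicle and -0.21 after folic acid, while the median over all genes lay within 0.02 of 0 in each. Each group served in 2 of these 4 comparisons, so they are not independent of each other. The median for folic acid in WT was -0.086 without WT folic acid 1, and -0.11 with the Y-linked share as a term.

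**Figure D1:**
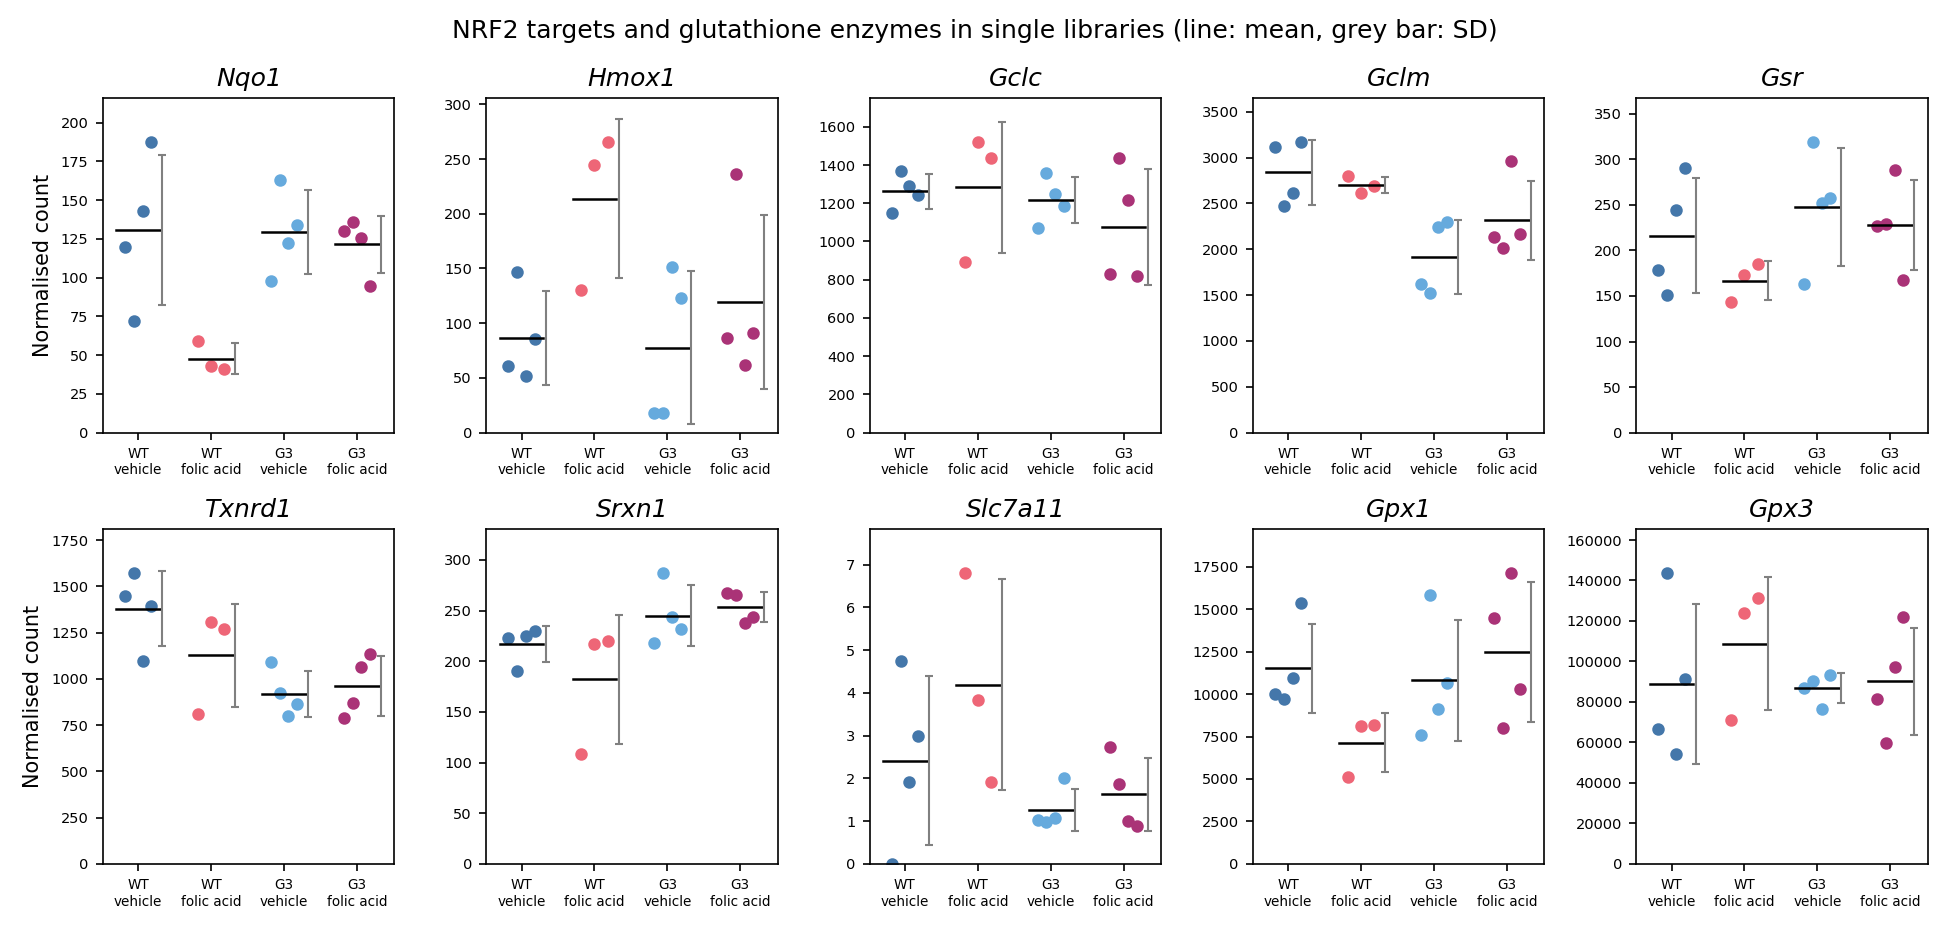
Normalised count (vertical axis, linear, from 0) of each of the 10 genes in the 15 libraries by group; points are libraries, black lines group means and grey bars SDs. Nqo1 in WT folic acid (41.0 to 59.0) lies below every other library (72.0 to 188), and Slc7a11 stays below 7 everywhere.

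Nqo1, on chr8:107388225-107403206 of GRCm38, minus strand, encodes the quinone reductase that is the usual readout of NRF2. WT vehicle libraries held 119.9, 72.0, 143.0 and 187.8 normalised counts, and WT folic acid libraries held 59.0, 43.2 and 41.0. G3 vehicle libraries held 97.6, 163.2, 122.3 and 134.3, and G3 folic acid libraries held 129.8, 136.2, 125.9 and 94.8. The 3 WT folic acid libraries were thus the lowest 3 of the 15, and the other groups overlapped one another. WT folic acid 2 and 3 were unusually alike over all genes. The chi-square between them, averaged over genes, was 3.01, against 2.88 for G3 vehicle 3 and 4 and 7.25 for the next pair. Whether WT folic acid 2 and 3 came from separate kidneys was not tested. In reads the gene ranged from 43 to 188 per library, so counting error is a real part of its spread. WT vehicle averaged 130.7 ± 48.2 (SD, n = 4) and WT folic acid 47.7 ± 9.82 (SD, n = 3), whereas G3 vehicle averaged 129 ± 27.2 (SD, n = 4) and G3 folic acid 122 ± 18.4 (SD, n = 4).

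With folic acid Nqo1 fell in WT by 1.37 on the log2(normalised count + 1) scale (SE 0.26, limma adjusted p = 0.0131), which is a ratio of 0.387 with a 95% interval of 0.264 to 0.566. All 3 WT folic acid libraries lay below all 4 vehicle libraries. The call held when each of the 15 libraries was left out in turn (log2 difference -1.63 to -1.17), and without WT folic acid 1 the difference was -1.53 (adjusted p = 0.0269). Leaving out WT folic acid 2 or 3 kept the other library of that closely alike pair. With the Y-linked share as a term the difference was -0.80 (adjusted p = 0.981), and with the series of sample numbers as a term -1.17 (adjusted p = 0.0713). In G3 the folic acid difference of Nqo1 was -0.08 (adjusted p = 0.934), with an interval of the ratio from 0.667 to 1.35.

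Between genotypes Nqo1 did not differ beyond the spread after vehicle (log2 difference 0.04, adjusted p = 0.95). After folic acid it was higher in G3 by 1.34 (SE 0.26, limma adjusted p = 0.0198), a ratio of 2.53 with an interval of 1.73 to 3.70, and every G3 library lay above every WT library. That call was lost without WT folic acid 2 (adjusted p = 0.0882), WT folic acid 3 (0.0944) or G3 folic acid 1 (0.0716). It was also lost with the Y-linked share as a term (1.01, adjusted p = 0.255). With the number series as a term it was 0.54 (adjusted p = 0.999), and series and genotype after folic acid cannot be told apart. The test of whether the folic acid effect on Nqo1 differed between genotypes gave 1.29 (SE 0.35, limma adjusted p = 0.0506), just short of the threshold. It passed in edgeR (adjusted p = 0.0443) and DESeq2 (0.0118), and without WT vehicle 2, WT folic acid 1, G3 vehicle 2 or G3 folic acid 4 (0.00437 to 0.0487). No other fit that left out a single library passed (limma adjusted p up to 0.127). With the Y-linked share as a term the difference was 0.38 (limma unadjusted p = 0.501), and with the labelled sex 1.30 (adjusted p = 0.149). Among libraries with almost no Y-linked RNA (share under 0.05), Nqo1 was 41.0 to 59.0 in the 3 WT folic acid kidneys, 97.6 to 163 in the 4 G3 vehicle kidneys and 136 in the single G3 folic acid kidney of that kind. WT vehicle 2, which held both Xist and Y-linked RNA, had the lowest Nqo1 of its group.

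**Figure D2:**
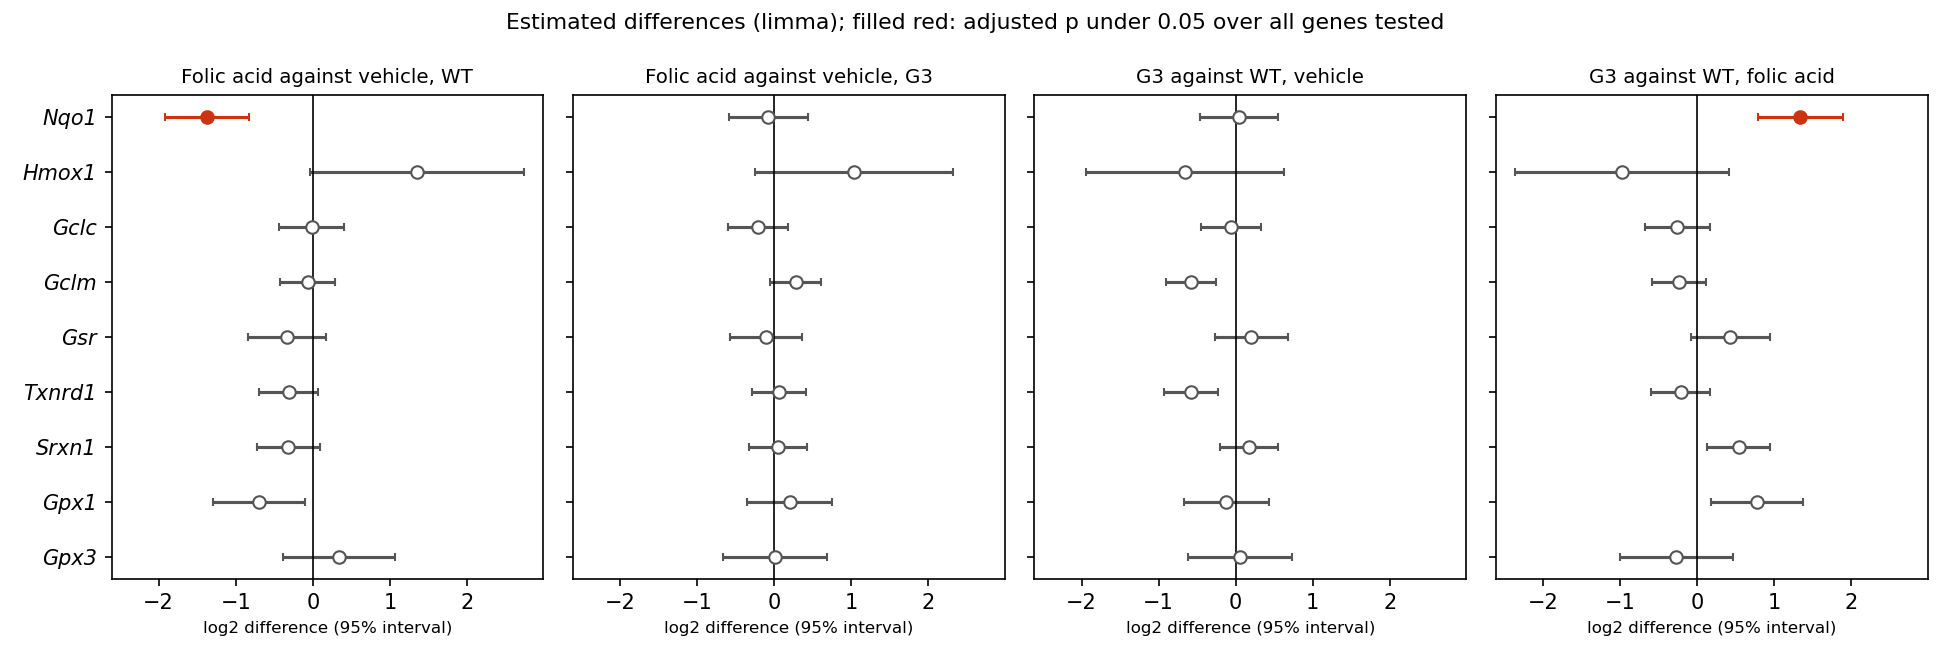
Log2 differences (horizontal axis) with 95% intervals for the 9 tested genes in 4 comparisons, from limma; filled red points passed at adjusted p under 0.05. Only Nqo1 passed, lower with folic acid in WT (-1.37) and higher in G3 than WT after folic acid (1.34), and Hmox1 has the widest intervals.

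Hmox1 (chr8:75093621-75100589, plus strand), the inducible haem oxygenase, which breaks haem into biliverdin, carbon monoxide and iron, was the most variable of the 10 genes, with a 15.1-fold range over the libraries. WT vehicle libraries held 61.1, 146.9, 51.8 and 85.9 normalised counts and WT folic acid libraries 130.5, 244.8 and 265.9. G3 vehicle libraries held 18.3, 17.6, 151.5 and 123.3, and G3 folic acid libraries 86.2, 236.7, 61.9 and 91.3. The groups overlapped in every comparison, and within G3 vehicle the libraries split into a low and a high pair. The high pair, G3 vehicle 3 and 4, was also the most alike over all genes (chi-square averaged over genes 2.88). Whether G3 vehicle 3 and 4 came from separate kidneys was not tested. The folic acid difference was 1.35 in WT (SE 0.66, adjusted p = 0.23) and 1.04 in G3 (adjusted p = 0.486), with 95% intervals of -0.04 to 2.74 and -0.25 to 2.32. The same differences were -0.11 (adjusted p = 0.994) and 1.90 (adjusted p = 0.404) once the Y-linked share was a term. Macrophages that take up red cells express Hmox1, so their markers are given here. The sum of 11 macrophage markers was 1061 to 1471 in WT vehicle, 1349 to 3888 with folic acid there, 800 to 1253 for G3 vehicle and 1323 to 3350 for G3 folic acid. Cd68 was never 0 and Adgre1 was 0 in 1 library. The sum of 5 erythroid markers was 16305 to 35061, 17463 to 23002, 27153 to 44529 and 6177 to 22087 in the same order. The highest macrophage sum with folic acid in WT (3888, against 1350 and 1349) was in WT folic acid 1, which also had the lowest Hmox1 of that group. That single library stood apart in its Gm42418 share and its proximal tubule markers. The part of either cell type in the Hmox1 values was not tested.

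**Figure D3:**
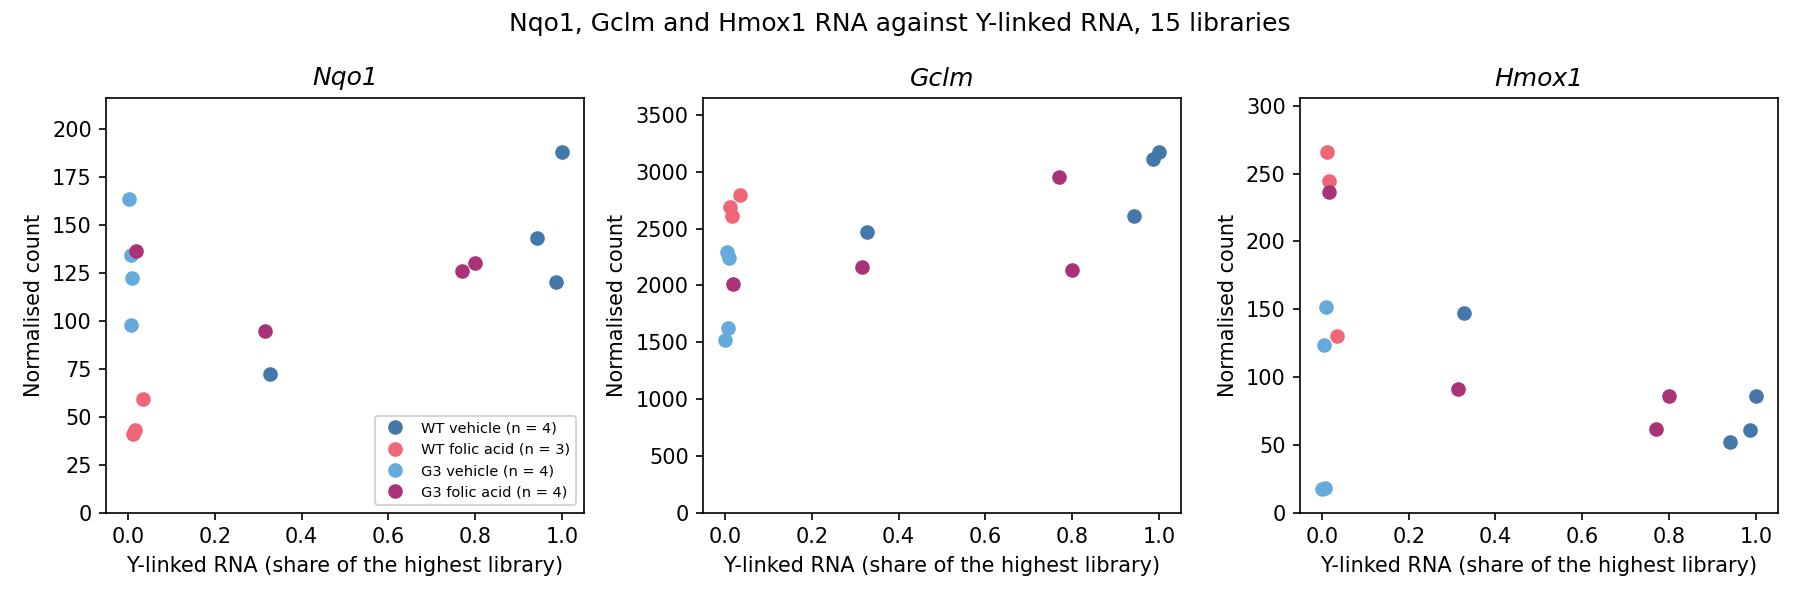
Normalised counts (vertical axis, from 0) of Nqo1, Gclm and Hmox1 against the summed Y-linked RNA as a share of the highest library (horizontal axis), 1 point per library, coloured by group. WT vehicle (0.327 to 1) and WT folic acid (0.011 to 0.034) do not overlap on the horizontal axis, and at shares under 0.05 Nqo1 is 41.0 to 59.0 in WT folic acid and 97.6 to 163 in G3 vehicle.

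Glutamate-cysteine ligase carries out the first and rate-limiting step of glutathione synthesis. Its catalytic subunit is Gclc (chr9:77754535-77794485, plus strand) and its modifier subunit, which eases feedback inhibition, is Gclm (chr3:122245557-122270732, plus strand). Gclc was 1151.3, 1368.7, 1287.5 and 1240.8 in WT vehicle and 891.7, 1522.3 and 1438.4 in WT folic acid. The G3 vehicle libraries held 1070.9, 1356.0, 1250.7 and 1185.6, and the G3 folic acid libraries 828.8, 1437.4, 1218.8 and 820.4. Its groups overlapped throughout, and its differences ran from -0.26 to -0.01 with adjusted p from 0.498 to 0.983. Both folic acid groups spread more widely than the vehicle groups, with SDs of 342 (n = 3) and 304 (n = 4) against 90.8 and 119 (n = 4 each). In WT folic acid the wide SD came from WT folic acid 1 (891.7, against 1522.3 and 1438.4), the library that stood apart in its Gm42418 share.

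Gclm was 3112.3, 2468.2, 2609.6 and 3173.9 in WT vehicle and 2795.4, 2614.5 and 2691.9 in WT folic acid. Libraries of G3 mice held 1625.1, 1520.2, 2239.5 and 2295.1 after vehicle and 2137.8, 2008.6, 2958.0 and 2162.3 after folic acid. All 4 G3 vehicle libraries lay below all 4 WT vehicle libraries, with a log2 difference of -0.58 (SE 0.16, limma adjusted p = 0.0529), a ratio of 0.668 with an interval of 0.533 to 0.839. The difference missed the threshold here. It passed in DESeq2 (adjusted p = 0.0174), with genes of at least 50 normalised counts (0.0447), when the 2 libraries with RNA of both sexes were left out (0.0465), and without WT vehicle 2, WT folic acid 1, G3 folic acid 2 or G3 folic acid 3 (0.0306 to 0.0452). The Gclm difference with the Y-linked share as a term was -0.24 (adjusted p = 0.875). After folic acid the genotypes overlapped (-0.24, adjusted p = 0.448), and folic acid against vehicle gave -0.07 in WT (adjusted p = 0.861) and 0.28 in G3 (adjusted p = 0.46). The ratio of Gclm to Gclc counts, used only to compare libraries, was lowest on average among G3 vehicle kidneys, at 1.59 ± 0.36 (SD, n = 4), and was 2.27 ± 0.43 (SD, n = 4) for WT vehicle, 2.24 ± 0.78 (SD, n = 3) for WT folic acid and 2.26 ± 0.58 (SD, n = 4) for G3 folic acid. The ranges of that ratio overlapped between all groups.

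Slc7a11 (chr3:49892526-50443614, minus strand) encodes the exchanger that brings in cystine, from which the cysteine of glutathione is made, and is among the strongest NRF2 targets in cultured cells. Here it was near the limit of detection: 0, 5, 2 and 3 reads in the WT vehicle libraries, and 6, 4 and 2 in WT folic acid. The G3 vehicle libraries held 1, 1, 1 and 2, and the G3 folic acid libraries 3, 2, 1 and 1. A count of 0 allows up to 3 reads, or 3.39 normalised counts in that library, for counting error only. No difference was detectable at this depth, and the gene was not tested.

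Gsr (chr8:33652523-33698163, plus strand), glutathione reductase, returns oxidised glutathione to its reduced form with NADPH. It was 178.7, 150.7, 244.7 and 290.7 in WT vehicle and 142.9, 172.8 and 184.9 in WT folic acid. Libraries of G3 mice held 162.7, 319.5, 252.1 and 257.6 after vehicle and 226.9, 229.2, 288.7 and 167.3 after folic acid. The 3 WT folic acid values were in the lower part of the range, but the groups overlapped. The folic acid difference was -0.33 in WT (adjusted p = 0.431) and -0.11 in G3 (adjusted p = 0.896).

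Txnrd1 (chr10:82833951-82897712, plus strand) is the cytosolic thioredoxin reductase, a selenium enzyme. It was 1451.0, 1573.5, 1095.7 and 1393.6 in WT vehicle and 807.8, 1306.3 and 1268.7 in WT folic acid. The G3 vehicle libraries held 1089.2, 924.2, 799.5 and 863.9, and the G3 folic acid libraries 787.9, 869.0, 1061.9 and 1132.6. Like Gclm, Txnrd1 was lower in every G3 vehicle library than in every WT vehicle library, by the narrowest of margins (1089.2 against 1095.7). The log2 difference was -0.58 (SE 0.17, limma adjusted p = 0.0692), a ratio of 0.668 with an interval of 0.523 to 0.855, and missed the threshold. It passed with those 2 groups alone (adjusted p = 0.036), in DESeq2 (0.026) and without WT folic acid 1 (0.0294). That was 1 of the 15 fits that left out a library, and the others did not pass (adjusted p up to 0.2). With the Y-linked share as a term Txnrd1 was at -0.74 (limma adjusted p = 0.803), and with the labelled sex at -0.65 (0.192). After folic acid the difference between genotypes was -0.21 (adjusted p = 0.549).

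Srxn1 (chr2:152105516-152111376, plus strand), sulfiredoxin, rescues peroxiredoxins that have been over-oxidised by peroxide. It was 222.8, 190.5, 224.5 and 229.8 in WT vehicle and 108.9, 216.9 and 220.2 in WT folic acid. Libraries of G3 mice held 217.6, 287.2, 243.4 and 231.5 after vehicle and 266.9, 264.9, 237.8 and 243.3 after folic acid. Apart from WT folic acid 1 the values lay between 190.5 and 287.2. All 4 G3 folic acid libraries lay above the 3 WT folic acid libraries, with a difference of 0.54 (SE 0.19, adjusted p = 0.132) that missed the threshold and was 0.21 (adjusted p = 0.377) without WT folic acid 1. The folic acid difference in WT was -0.32 (adjusted p = 0.34), and without WT folic acid 1 it was 0.01 (adjusted p = 0.973).

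Gpx1 (chr9:108338903-108340343, plus strand) was 9999.7, 9734, 10964 and 15374 in WT vehicle and 5115, 8131 and 8181 in WT folic acid. The G3 vehicle libraries held 7598, 15851, 9138 and 10655, and the G3 folic acid libraries 14506, 7992, 17148 and 10297. All 3 WT folic acid libraries lay below all 4 WT vehicle libraries, as for Nqo1, but against a wider spread. The log2 difference was -0.70 (SE 0.28, limma adjusted p = 0.148), a ratio of 0.617 with an interval of 0.409 to 0.931. Without WT folic acid 1 it was -0.47 (adjusted p = 0.45), and with the Y-linked share as a term 0.03 (adjusted p = 0.995). After folic acid Gpx1 had a difference of 0.78 between G3 and WT (adjusted p = 0.138), with overlapping groups, and the difference between the 2 folic acid effects was 0.90 (adjusted p = 0.239).

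Gpx3 (chr11:54902453-54910377, plus strand) was 66439, 143755, 54325 and 91215 in WT vehicle and 71070, 124053 and 131273 in WT folic acid. Libraries of G3 mice held 86759.6, 90300.2, 76490.3 and 93517 after vehicle and 81525, 59599.9, 97085 and 122158 after folic acid. It alone took 0.905 to 2.29% of the reads of a library. WT vehicle held both the lowest and the highest of the 15 values, and the groups overlapped. The folic acid difference was 0.34 in WT (adjusted p = 0.596) and 0.01 in G3 (adjusted p = 0.994), with intervals that reached both sides of 0. The sum of 12 proximal tubule markers, the cells that make Gpx3, was 54444 to 79516 in WT vehicle, 38347 to 79180 in WT folic acid, 52241 to 69899 in G3 vehicle and 37274 to 58683 in G3 folic acid. Its part in the Gpx3 values was not tested.

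The 9 tested genes did not move as 1 block over the 15 libraries. Over the 36 pairs of genes Pearson's r of the log2 values ran from -0.55 to 0.77 with a median of 0.06, as a description over libraries that share groups, sex composition and depth. Gsr and Gpx1 went together most closely (r = 0.77), followed by Nqo1 and Gsr (0.74), while Nqo1 and Gpx3 ran opposite (-0.55), as did Nqo1 and Hmox1 (-0.53). Among 11748 genes with a mean of at least 20 normalised counts, those most like Nqo1 were Mrpl17 and Fam120a (r = 0.93 each). Those most like Gsr were Esd (0.97) and Ptgr2 (0.95), and those most like Gpx1 were Suclg2 and Cat, the catalase gene (0.93 each). The pattern closest to Txnrd1 was that of Mrps12 (0.94), with the glutaredoxin gene Glrx2 among its nearest 3 (0.93). The closest to Gclm was Yipf5 (0.90), to Srxn1 Gm26129 (0.92), to Gpx3 Yif1b (0.94), to Hmox1 Gm38118 (0.83) and to Gclc Shank2 (0.81).

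The regulators of the pathway showed small differences. Nfe2l2 itself averaged 844 ± 102 normalised counts (SD, n = 4) for WT vehicle and 939 ± 53.1 (SD, n = 3) for WT folic acid, then 903 ± 42.0 (SD, n = 4) for G3 vehicle and 834 ± 82.6 (SD, n = 4) for G3 folic acid, and it passed in no comparison (adjusted p from 0.403 to 0.701). Keap1 averaged 486, 390, 446 and 492 and Bach1 216, 255, 211 and 232 in the same order, and neither passed anywhere. Of the 10 genes of the regulator list, Sqstm1 passed. It encodes p62, an adaptor of autophagy that binds KEAP1 and is also an NRF2 target. Sqstm1 fell with folic acid in WT by 0.57 on the log2 scale (adjusted p = 0.0261), from 2325 to 2721 in the vehicle libraries to 1636 to 1758. It was lower in G3 than in WT after vehicle by a log2 difference of -0.52 (adjusted p = 0.0319), at 1542 to 1897. With the Y-linked share as a term these Sqstm1 differences were -0.19 and -0.13.

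Beyond the 10 genes, 9 lists of the wider pathway held 105 genes, of which 96 were tested. The lists were chosen with earlier results of these data known, so their shares of calls are only a description. With folic acid in WT 7 of them rose and 9 fell (16.7%, against 5.06% of all genes), with a median log2 difference of -0.20 against 0.01 over all genes. In G3 0 passed with folic acid in limma and 0 in edgeR, while DESeq2 called 4 and 15 had an unadjusted p under 0.05. After vehicle 7 were higher and 5 lower in G3 than in WT (12.5%, against 2.9%), and after folic acid 3 were higher and 1 lower (4.17%, against 2.3%). The folic acid effect differed between genotypes for 16 (16.7%, against 3.82%). When single libraries were left out, each call held in 4 to 12 of 15 fits for folic acid in WT, in 6 to 15 for genotype after vehicle, in 4 to 12 for genotype after folic acid, and in 2 to 15 for the difference between effects. With the Y-linked share as a term 0 of the 96 passed in any of the 5 comparisons, with 3 to 14 at an unadjusted p under 0.05, and with the number series as a term 0 passed, with 3 to 27.

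**Figure D4:**
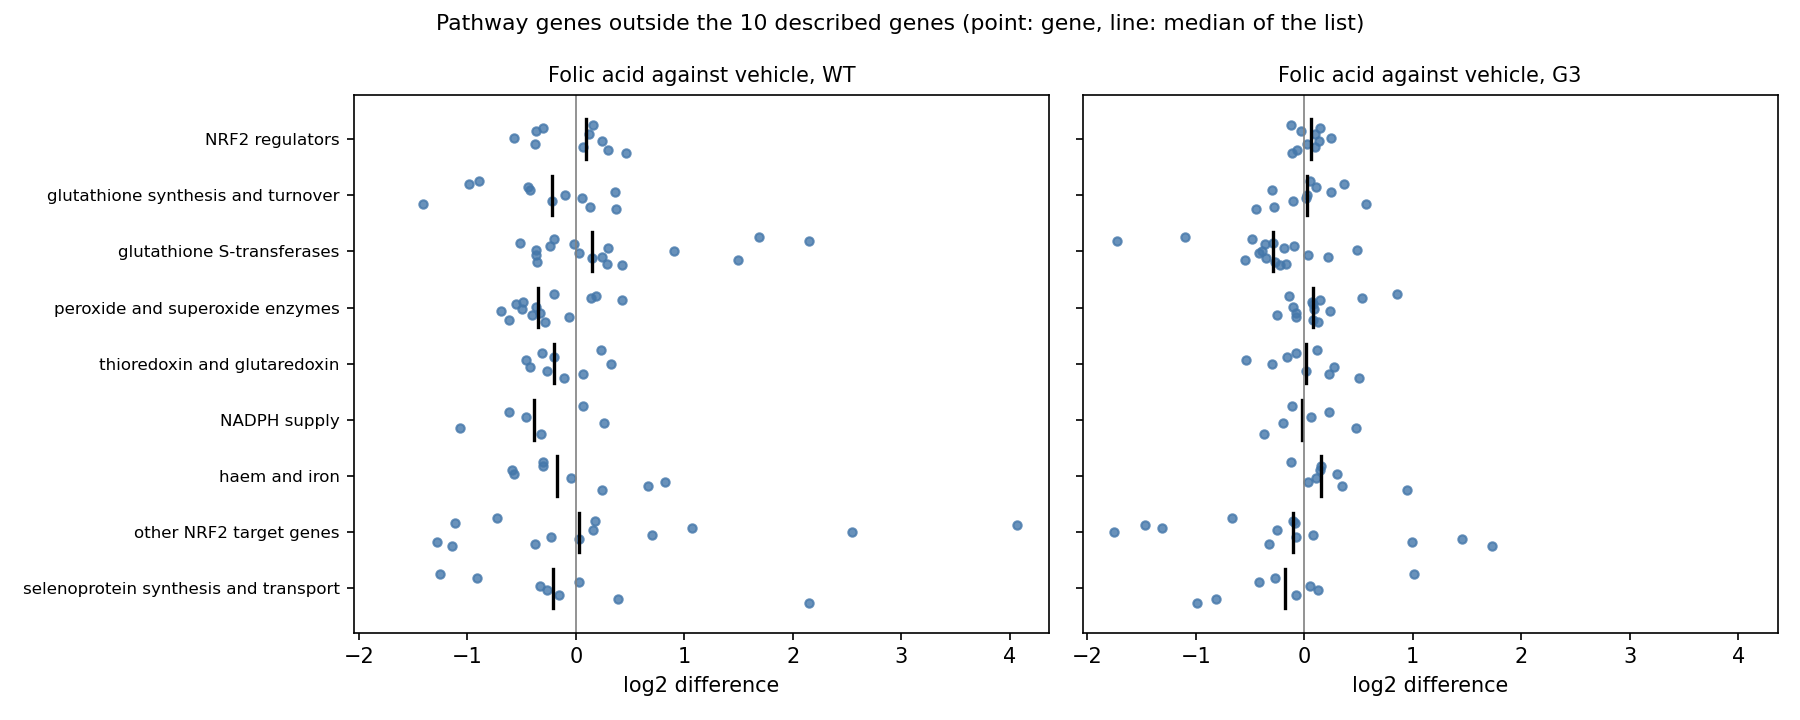
Log2 differences (horizontal axis) of the 96 tested pathway genes by list for folic acid against vehicle in WT (left) and G3 (right); points are genes and black lines list medians. Medians lie between -0.39 and 0.15 in WT and between -0.29 and 0.15 in G3, and the widest spread in WT is among other NRF2 targets, where Abcc3 reaches 4.07.

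Among 11 tested genes of glutathione synthesis and turnover, 3 fell with folic acid in WT and none rose: Gss, glutathione synthetase (ratio 0.54, adjusted p = 0.026), Ggt1, the brush-border enzyme that begins the breakdown of extracellular glutathione (0.506, adjusted p = 0.0344), and Cbs, which feeds homocysteine towards cysteine (0.376, adjusted p = 0.0355). For each of the 3 all WT folic acid libraries lay below all WT vehicle libraries. These are the libraries that gave the calls, so this is a description and no further support. After vehicle 3 were lower in G3 than in WT: Ggt1 (ratio 0.466, adjusted p = 0.0175), Cbs (0.28, adjusted p = 0.00917) and Ggct, which cleaves gamma-glutamyl amino acids (0.521, adjusted p = 0.00752). Cbs ran from 964 to 1779 normalised counts in WT vehicle and from 354 to 437 in G3 vehicle. The log2 difference of Cbs with folic acid in WT was -0.03 with the Y-linked share as a term, against -1.41 without it. Gss and Ggt1 had -0.13 and -0.30 with that term in the same comparison, against -0.89 and -0.98. Between genotypes after vehicle it left Ggt1 at -0.41 (-1.10 without it), Cbs at -0.43 (-1.84) and Ggct at -0.60 (-0.94).

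Glutathione S-transferases couple glutathione to electrophiles. Of 17 tested, 4 rose with folic acid in WT and none fell, with a median log2 difference of 0.15 over the 17: Gsta2 (ratio 3.22, adjusted p = 0.0426), Gsta4 (4.44, adjusted p = 0.0349), Gstm7 (1.88, adjusted p = 0.0435) and Gsto1 (2.81, adjusted p = 0.0157). Gsto1 was 48.6 to 122 normalised counts in WT vehicle and 193 to 287 in WT folic acid. After vehicle 5 were higher in G3 than in WT, namely Gsta2 (4.79), Gsta3 (1.72), Gsta4 (4.17), Gsto1 (2.25) and Mgst1 (2.40), with adjusted p from 0.00971 to 0.0386. With the Y-linked share as a term Gsta2 and Gsta4 had log2 differences of -0.17 and -0.25 with folic acid in WT, the opposite sign, and Gsto1 had 0.45 against 1.49 without it. Gstm7 was as large with that term (1.02 against 0.91), as were Mgst1 (1.48 against 1.26) and Gsta3 (0.79 in both) between genotypes after vehicle, though none of these passed. Between genotypes after vehicle Gsta2, Gsta4 and Gsto1 had 0.37, -0.38 and 0.11 with it, against 2.26, 2.06 and 1.17. These families hold near-identical genes that can exchange reads, so single values are uncertain.

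Of 13 other NRF2 target genes, Abcc3 (log2 difference 4.07, adjusted p = 0.0289) and Cbr1 (2.54, adjusted p = 0.0322) rose with folic acid in WT, and Abcc2 (-1.12, adjusted p = 0.0157) and Ptgr1 (-1.28, adjusted p = 0.0449) fell. Abcc2 and Abcc3 are exporters of glutathione conjugates, on the apical and the basolateral side of the cell, and Cbr1 and Ptgr1 reduce carbonyls. Abcc3 was 0 to 50.2 in WT vehicle and 78.7 to 261 in WT folic acid. Cbr1 was 228 to 1289 and 1656 to 2415. With the Y-linked share as a term the differences of Abcc3 and Cbr1 were 0.21 and -0.52. Abcc4, another exporter of this family, was higher in G3 than in WT after vehicle (ratio 3.67, adjusted p = 0.0108), as was Cbr1 (5.07, adjusted p = 0.0395). The log2 differences of Abcc4 and Cbr1 there were 1.87 and 2.34, and with the Y-linked share as a term 0.15 and -0.78, and the Cbr1 call held in 6 of the 15 fits that left out a library. Ptgr1 was higher in G3 after folic acid (3.04, adjusted p = 0.029). The Y-linked term left Abcc2 at -0.63 and Ptgr1 at -0.22 with folic acid in WT, and Ptgr1 at 0.99 between genotypes after folic acid.

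Both enzymes of NADPH supply that passed fell with folic acid in WT: Me1, malic enzyme (ratio 0.475, adjusted p = 0.0309), and Pgd of the pentose phosphate pathway (0.655, adjusted p = 0.0417), out of 6 tested. Me1 was also lower in G3 than in WT after vehicle (0.468, adjusted p = 0.0242), and Pgd was higher in G3 after folic acid (1.62, adjusted p = 0.0368). Of 8 genes of selenoprotein synthesis and transport, Selenop, which carries selenium in plasma, fell with folic acid in WT (0.419, adjusted p = 0.0447), and Lrp8, one of its receptors, rose (4.45, adjusted p = 0.0364). Lrp8 had few reads, at 3.00 to 9.59 normalised counts in WT vehicle and 17.2 to 56.7 in WT folic acid. Its highest value was in WT folic acid 1, and without that library its log2 difference was 1.655. After folic acid Selenop was higher in G3 than in WT (2.56, adjusted p = 0.049), and Lrp2 (megalin), the tubular receptor that takes Selenop up, was lower (0.476, adjusted p = 0.0205). Lrp2 ran from 8702 to 12006 in WT folic acid and from 4109 to 5815 in G3 folic acid. Once the Y-linked share was a term, the log2 differences with folic acid in WT were -0.08 for Me1 (-1.07 without it), -0.23 for Pgd (-0.61), 0.19 for Selenop (-1.26, the opposite sign) and 0.99 for Lrp8 (2.15). Me1 between genotypes after vehicle was then -0.08 (-1.10 without it), and after folic acid Pgd was 0.47 (0.69), Selenop 0.52 (1.35) and Lrp2 -0.77 (-1.07). The Selenop calls held in 5 and 4 of the 15 fits that left out a library, with folic acid in WT and between genotypes after folic acid.

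In 3 lists no gene passed limma in any of the 5 comparisons, against 0.273 to 5.06% of all genes, and edgeR called 0 too. These were peroxide and superoxide enzymes (14 tested, 1 to 5 at an unadjusted p under 0.05), thioredoxin and glutaredoxin genes (9 tested, 1 to 3) and haem and iron genes (8 tested, 0 to 4). In lists this small, 0 calls are close to the background. DESeq2 called 3 peroxide genes and 1 haem and iron gene with folic acid in WT, and 1 thioredoxin or glutaredoxin gene in each of folic acid in G3 and genotype after folic acid. The median log2 difference of the peroxide list was -0.35 with folic acid in WT and 0.08 in G3. Tubular injury markers, for comparison, summed to 1935 to 3125 in WT vehicle, 3650 to 6312 in WT folic acid, 2787 to 3561 in G3 vehicle and 3899 to 8569 in G3 folic acid, higher in every folic acid library than in every vehicle library of the same genotype. Clu and Spp1 made up most of these sums. Of the 7 markers 1 passed with folic acid in WT and 1 in G3.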

How the data were processed

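Per the labels' protocols, libraries were made from kidney RNA with a QuantSeq kit that reads 3′ ends and keeps the strand, from RNA whose quality scores varied between samples. Per the submitters' processing notes, the tools were FastQC 0.11.7, TopHat2 2.0.10, Bowtie 1.0.0, SAMtools 0.1.19, HTSeq 0.6.1 and DESeq2, with the build GRCm38. No source used here names the annotation release. Values in the deposited table are a signal, reads per gene over a size factor for each library, by the authors. Dividing each library by its smallest value returned whole reads for 100% of values within 0.001.

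Genes with at least 10 normalised counts in at least 3 libraries (14651) were tested on log2(normalised count + 1) in R 4.3.3 by limma 3.58.1 with its trend option, fitting the 4 groups to all 15 libraries at once. p-values were adjusted by Benjamini-Hochberg over all genes tested and called under 0.05. The Y-linked share adds Uty, Eif2s3y, Kdm5d and Ddx3y and sets the library with the largest sum to 1. The labelled sex was not a term because Xist and Y-linked RNA went against it. The genes, lists, named-gene rule and tests were chosen with earlier results of these data known. Named were the 10 genes, list genes that passed in any comparison, Nfe2l2, Keap1 and Bach1, and the 3 genes most like each of the 10. Gene positions come from GENCODE. Alternatives were the labelled sex, the Y-linked share or the number series as a term, the compared groups alone, leaving out each library or both libraries with Xist and Y-linked RNA, other filters, pseudocounts of 0.5 and 5, TMM scaling, and, on whole reads, DESeq2 1.42.0 and edgeR 4.0.16. The procedure was tested on simulated data. Chi-square between libraries, averaged over genes, was smallest for WT folic acid 2 and 3 (3.01) and for G3 vehicle 3 and 4 (2.88), above the value of 1 that sampling noise gives, and 7.25 for the next pair; all were counted as separate. Replicate numbers follow accession order. Markers of tissues that dissection can carry along were listed too: 10 of 16 were in the table, and their sum was 649 to 2786 normalised counts.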

Additional observations from a re-analysis of the deposited data

Results flagged for a closer look

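In 27 groups of 4 libraries screened for a value far from the rest, 2 stood apart, where chance alone gives about 1 in 20. Hmox1 was 236.75 in G3 folic acid 2, with the other libraries of that group at 61.9 to 91.3. Gclm was 2958 in G3 folic acid 3, with the others at 2009 to 2162.

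The folic acid effect differed between the genotypes for 16 pathway genes in limma (adjusted p under 0.05), and every value below is the G3 effect minus the WT effect on the log2 scale. It was positive for Sqstm1 (0.82), Ggt1 (1.35), Cbs (1.98), Pgd (0.84), Me1 (1.55), Ptgr1 (2.28) and Selenop (2.26). It was negative for Gsta2 (-2.79), Gsta4 (-3.88), Gstm7 (-1.30), Gsto1 (-2.04), Abcc3 (-5.54), Abcc4 (-2.39), Cbr1 (-4.30), Lrp2 (-1.21) and Lrp8 (-3.15). With the Y-linked share as a term none of the 16 passed (Gstm7 had the only unadjusted p under 0.05 among them, 0.0237). Gstm7 was then -1.47, Lrp8 -1.29, Ptgr1 0.59, Gsto1 -0.38, Lrp2 -0.38, Ggt1 0.27, Pgd 0.24, Sqstm1 0.21 and Gsta4 -0.053. Cbs, Gsta2, Me1, Abcc3, Abcc4, Cbr1 and Selenop changed sign.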

How the results depend on the processing

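No paired analysis was possible because the replicate numbers follow accession order and no label ties libraries of different groups. Of 1206 values of the 9 tested genes under the alternatives, 1181 kept direction and side of the threshold, 7 lost the call, 18 gained it and 0 reversed. Uncalled values that changed sign without a call in either fit (57 here, 51 for the pathway genes) count as kept. Of 3206 values of the pathway genes 2726 kept both, 414 lost the call, 53 gained it and 13 reversed, all 13 with the Y-linked share as a term. Those were, for folic acid in WT, Gsta2 (-0.17), Gsta4 (-0.25), Cbr1 (-0.52) and Selenop (0.19); for genotype after vehicle, Gsta4 (-0.38) and Cbr1 (-0.78); and for the difference between the folic acid effects, Cbs (-0.22), Gsta2 (0.17), Me1 (-0.029), Abcc3 (0.60), Abcc4 (0.30), Cbr1 (0.58) and Selenop (-0.040). The cause was not tested.

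The number of the 9 genes called was 0 with the Y-linked share or the number series as a term for folic acid in WT and for genotype after folic acid, against 1. For genotype after vehicle, against 0, it was 1 with the 2 groups alone, without the 2 libraries holding both Xist and Y-linked RNA, or with a filter of 50, 2 in DESeq2, and 0 to 2 leaving out single libraries. For the difference between folic acid effects, against 0, it was 1 without those 2 libraries, with a filter of 50, in edgeR or in DESeq2. Leaving out single libraries gave 0 to 1 there and for genotype after folic acid. The median of the 9 genes for folic acid in WT was -0.11 with the Y-linked share and -0.41 to -0.086 leaving out single libraries, against -0.31. For the difference between effects it was 0.0054 with the number series and 0.12 to 0.38 leaving out single libraries, against 0.34.

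Over all genes DESeq2 called 1257, 387, 787, 763 and 812 in the 5 comparisons in the order of the report, against 741, 40, 425, 337 and 560. The Y-linked share left 1, 9, 1, 17 and 2, the number series 2, 0, 1, 0 and 3, and the labelled sex 370, 12, 17, 268 and 103. Leaving out single libraries gave 99 to 1306, 3 to 360, 81 to 685, 27 to 625 and 253 to 926. Depth limits Slc7a11 and, at 43 to 188 reads, Nqo1.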
